A study of Mus musculus with 15 samples.

Results

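The 55 DNA replication and S-phase genes described here are the components with which a dividing cell licenses its replication origins, copies its DNA, supplies the nucleotides for it and rebuilds chromatin behind the fork, together with the E2F factors and E-type cyclins that act at entry into S phase. They were taken by gene symbol from a list, which was chosen with earlier results of these data known. Each of the 55 symbols was found among the 24490 genes counted in each library, and all 55 passed the filter on low counts that left 14907 genes for testing. The members were sorted into 8 roles: origin licensing, helicase activation, polymerases and primase, the clamp and lagging-strand group, nucleotide supply, fork protection, chromatin assembly with maintenance methylation, and the E2F factors with cyclin E.

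RNA came from granulosa cells in primary culture, the ovarian somatic cells around the oocyte, of 8-week-old RjOrl:SWISS female mice. Cells in 6-well plates received 30 pmol of siRNA with Lipofectamine RNAiMax. The 15 libraries form 5 groups of 3. Scrambled and Foxl2 siRNA were each sampled 30 h and 54 h after transfection, and Esr2 siRNA was sampled at 30 h alone. Foxl2 encodes a forkhead transcription factor that maintains granulosa cell identity, and Esr2 encodes oestrogen receptor beta. Each targeting siRNA was a pool of 3. The labels give the same catalogue numbers for both targets and do not say which pool went into which library, so the make-up of each pool is not known here. All groups share the wild-type outbred background, the culture and the lipid transfection, and the controls carried a non-targeting siRNA. The times are those of the sample titles, since the extraction protocol names 30 h alone. Nothing in the labels says whether replicate libraries were made from separate cultures or mice, so p-values measure only library-to-library spread, possibly technical. The RNA is from bulk cultures, in which fewer cells in S phase and less RNA of these genes per cell cannot be told apart.

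Replication is prepared in G1, when the origin recognition complex, CDC6 and CDT1 load the MCM2-7 helicase onto origins, a step that geminin blocks later in the cycle. At the G1/S transition, cyclin E with CDK2 helps to release E2F factors from the retinoblastoma proteins, and E2F factors switch on many genes of nucleotide synthesis and DNA copying, most of which are therefore highest from late G1 through S phase. Granulosa cells divide rapidly in growing follicles and leave the cell cycle when they turn into luteal cells.

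Because E2F is the textbook regulator of this group, promoter windows from 250 bases before to 50 bases after the annotated start site (RefSeq, GRCm38.p6) were read for the letters of its site, TTTCCCGC, TTTGGCGC, TTTCGCGC or TTTGCCGC, on both strands. A window was at hand for 45 of the 55 members, 54 windows in all. Of these 54 windows, 18 held at least 1 such match (33.3%), against 526 of the 14235 windows of tested genes (3.7%) and 2.26% of all 32851 windows. The 18 windows belonged to 18 members, and the largest number of matches in 1 window was 3, in Mcm6. The shares are descriptions of letters and do not say that a factor bound there. The 4 windows below are shown because, among members with such a match, these had the largest change in the comparison with most called members, with 1 member per role. The Cdc6 window lies at chr11:98907901-98908200, that of Clspn at chr4:126556730-126557029, that of Uhrf1 at chr17:56304063-56304362 and that of E2f7 at chr10:110745189-110745488, all on the plus strand of GRCm38.p6. Each is written 5′ to 3′ on its gene's strand, and the capitals mark the match, which in all but Uhrf1 reads on the opposite strand.
Cdc6: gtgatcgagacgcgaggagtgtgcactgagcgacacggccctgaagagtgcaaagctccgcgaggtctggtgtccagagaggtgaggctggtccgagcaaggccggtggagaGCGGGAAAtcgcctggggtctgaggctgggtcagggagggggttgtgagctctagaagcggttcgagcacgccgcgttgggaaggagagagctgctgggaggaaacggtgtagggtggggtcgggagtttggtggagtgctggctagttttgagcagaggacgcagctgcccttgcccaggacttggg
Clspn: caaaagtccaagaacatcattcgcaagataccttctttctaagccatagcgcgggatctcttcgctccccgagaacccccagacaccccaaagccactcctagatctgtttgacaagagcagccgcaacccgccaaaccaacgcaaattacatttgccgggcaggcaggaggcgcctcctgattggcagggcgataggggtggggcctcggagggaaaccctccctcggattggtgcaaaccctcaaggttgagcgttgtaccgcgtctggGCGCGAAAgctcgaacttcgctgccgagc
Uhrf1: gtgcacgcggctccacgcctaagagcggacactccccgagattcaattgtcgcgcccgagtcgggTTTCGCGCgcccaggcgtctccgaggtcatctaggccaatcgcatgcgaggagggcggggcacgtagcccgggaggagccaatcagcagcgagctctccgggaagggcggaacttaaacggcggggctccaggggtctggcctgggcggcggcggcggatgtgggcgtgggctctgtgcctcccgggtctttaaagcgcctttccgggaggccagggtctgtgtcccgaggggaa
E2f7: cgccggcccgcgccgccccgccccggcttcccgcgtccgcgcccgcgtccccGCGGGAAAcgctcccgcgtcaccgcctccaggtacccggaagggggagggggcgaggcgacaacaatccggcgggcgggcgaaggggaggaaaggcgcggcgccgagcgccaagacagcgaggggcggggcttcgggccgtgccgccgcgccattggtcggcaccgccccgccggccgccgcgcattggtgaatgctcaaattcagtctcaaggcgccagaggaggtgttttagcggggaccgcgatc

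The other letters searched were at shares nearer to those of other promoters. The CCAAT box, written CCAAT and bound by NF-Y, was in 59.3% of the members' windows and 37.6% of the windows of tested genes. A TTTGAA or TTCGAA run, the core of the cell-cycle homology region found in many late cell cycle promoters, was in 18.5% against 13.9%. The forkhead core TGTTTAC was in 2 of the members' windows (3.7%), against 2.54% of the windows of tested genes and 3.65% of all windows, so it was at the background share in these windows.

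Libraries held 44976872 to 59550065 gene counts, and the lowest count of any member in any library was 180. Levels are given in CPM (counts scaled to library size) after TMM normalization. Foxl2 lay at 143, 152 and 174 CPM in the scrambled libraries at 30 h and at 28.4 to 65.4 CPM with Foxl2 siRNA, and at 154 to 189 against 25.2 to 57.5 CPM at 54 h, so the targeted gene was lower in all 6 Foxl2 siRNA libraries. Esr2 lay at 12.9 to 14.5 CPM with Esr2 siRNA, against 60.4 to 61.6 CPM in the scrambled libraries at 30 h. Foxl2 lay at 112, 128 and 114 CPM in the Esr2 siRNA libraries, below all scrambled libraries of that time. The list of 14 granulosa markers includes Foxl2, the siRNA target itself, and Esr2. All 14 were present, and 9 were called lower (64.3%) and 1 higher (7.14%) with Foxl2 siRNA at 54 h. Among all genes tested 20.3% were called lower and 18.5% higher in that comparison. Esr2 itself was lower, at 15.7 to 49.3 CPM. In each Foxl2 siRNA group 1 library stood apart with a higher Foxl2 level, library 3 at 30 h (65.4 CPM) and library 2 at 54 h (57.5 CPM), and their values are given throughout. Surface epithelium markers were higher in sum with Foxl2 siRNA: the summed level of the 9 of 10 listed markers in the files was 411 to 478 CPM in scrambled and 990 to 1069 CPM in Foxl2 siRNA libraries at 54 h. At 30 h that sum was 450 to 473 against 624 to 688 CPM. Of the 9 markers, 6 were called higher and 0 lower at 54 h, with log2 changes from -0.85 to 2.62. At 30 h, 3 were called higher and 0 lower. Among all genes tested, 18.5% were called higher at 54 h and 6.34% at 30 h. Theca and stroma markers varied widely within groups. Their sum was 219 to 830 CPM in scrambled and 264 to 1003 CPM in Foxl2 siRNA libraries at 30 h. At 54 h it was 288 to 1005 against 378 to 1306 CPM. Endothelial markers summed to 5.18 to 11.9 against 7.43 to 17.9 CPM at 54 h. Leukocyte markers summed to 3.38 to 3.6 against 4.8 to 6.12 CPM at 54 h, with Tyrobp at 0 in all libraries. The part of other cell types in the results below was not tested.

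With Foxl2 siRNA at 54 h nearly the whole replication programme was lower than with scrambled siRNA. The 55 members had a median log2 change of -0.67, which left 62.8% of the scrambled level, and single members ran from -1.18 (E2f8, a repressor of the E2F family) to 0.15 (Rrm1, the large subunit of ribonucleotide reductase). By edgeR's quasi-likelihood test, adjusted by Benjamini-Hochberg over 14907 genes, 50 members were called lower and 0 higher at an adjusted p under 0.05. Among all genes tested, 38.8% were called, 20.3% of them lower and 18.5% higher as shares of all tested, with a median log2 change of -0.01. In 52 of the 55 members all 3 Foxl2 siRNA libraries lay below all 3 scrambled libraries, against 27.9% of all genes tested. Only 4 called members fell at least 2-fold, E2f8, Mcm10, Cdc6 and Clspn, so the change was broad and mostly less than 2-fold.

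**Figure D1:**
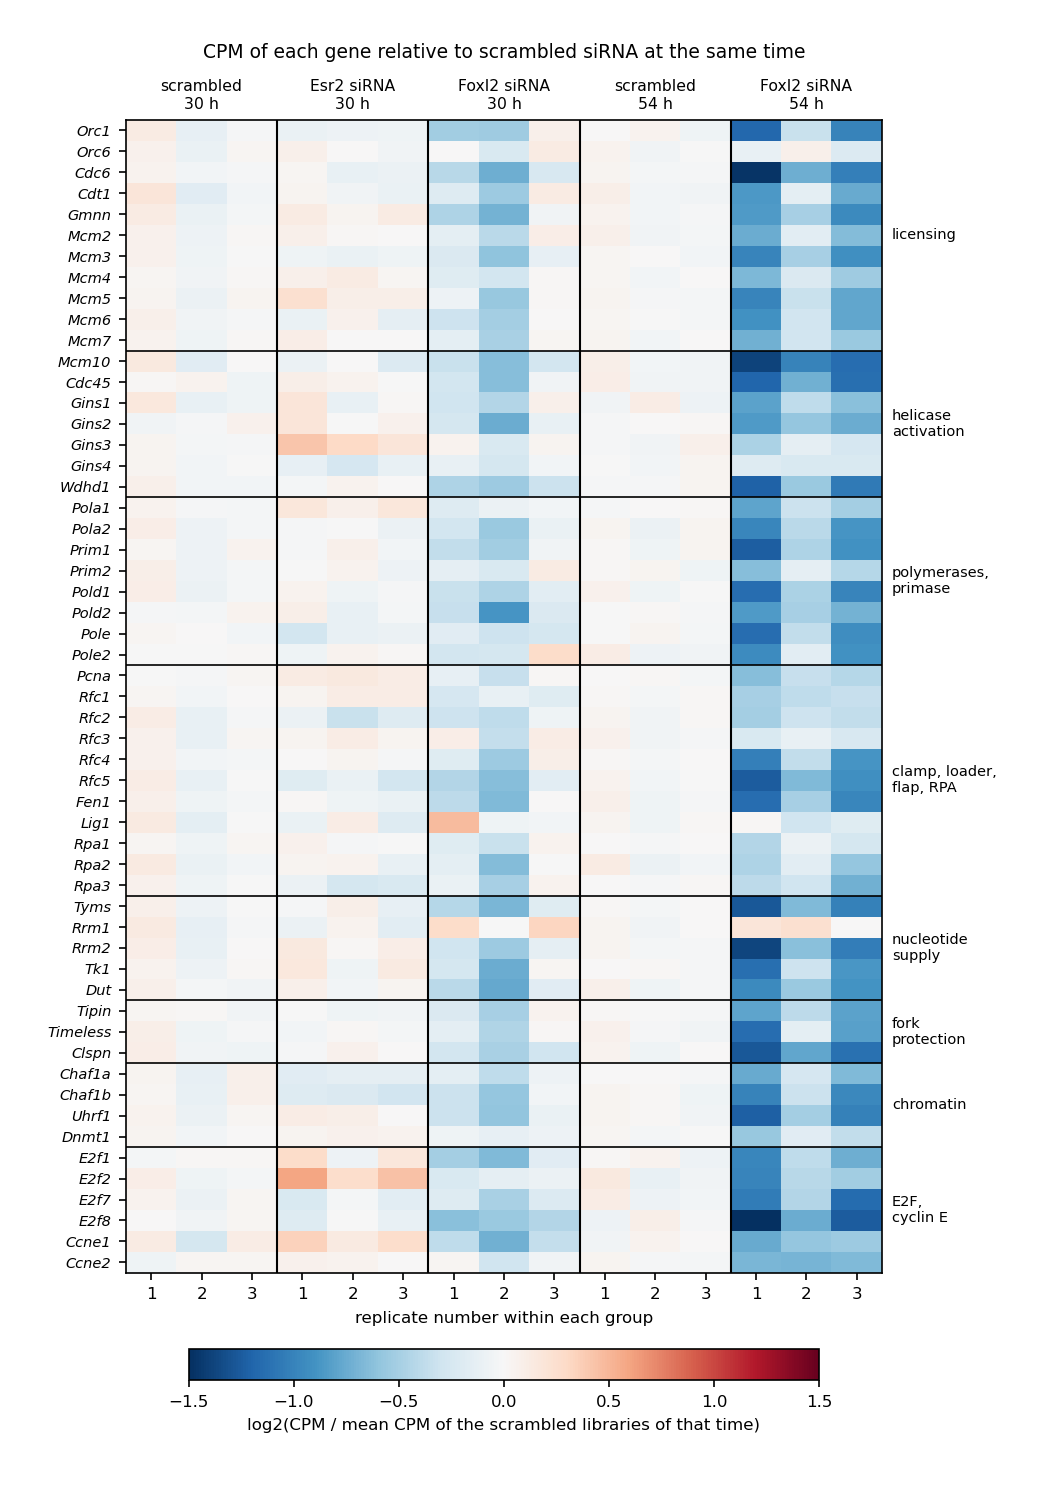
Log2 ratio of each member's CPM to the mean of the scrambled libraries of the same time, with the 55 members in rows by role and the 15 libraries in columns by group. The colour scale ends at 1.5 in either direction, and the lowest ratio was -1.70. The Foxl2 siRNA libraries at 54 h are lower over nearly all rows, least in library 2, while the Esr2 siRNA libraries stay near 0.

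Among the licensing genes, 10 of 11 were called lower at 54 h, with a median log2 change of -0.63. Cdc6, which loads the MCM helicase, lay at 26.0, 24.8 and 25.1 CPM in the scrambled libraries and at 9.11, 15.2 and 12.4 CPM with Foxl2 siRNA. The groups did not overlap, and the log2 change was -1.04 ± 0.15 (SE, n = 3 against 3; edgeR adjusted p = 0.000209). Cdt1, its partner in loading, lay at 33.5, 30.6 and 30.4 against 17.4, 28.5 and 18.7 CPM. The second Foxl2 siRNA library came close to the scrambled range, and the change of -0.55 ± 0.18 (edgeR adjusted p = 0.0308) was the least secure of the licensing calls. Its adjusted p was 0.126 without Foxl2 siRNA library 1 at 54 h and 0.111 without library 3, and 0.0964, 0.0597 and 0.0623 without scrambled library 1, 2 or 3 of that time.

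The 6 subunits of the MCM2-7 helicase ring fell by similar amounts, from 0.46 (Mcm4) to 0.78 (Mcm3) on the log2 scale. Mcm2 lay at 133, 122 and 123 CPM in scrambled libraries and at 75.3, 114 and 80.6 CPM with Foxl2 siRNA, a change of -0.49 ± 0.14 (edgeR adjusted p = 0.0142). Without library 1 or library 3 of the Foxl2 siRNA group, or without scrambled library 1 at 54 h, its adjusted p rose to 0.067, 0.0598 and 0.0557. Mcm5 lay at 75.6, 73.0 and 72.5 against 37.2, 58.6 and 42.8 CPM, a change of -0.67 ± 0.16. Mcm6 lay at 143, 139 and 137 against 74.0, 115 and 81.5 CPM, a change of -0.63 ± 0.15. In each of these subunits the second Foxl2 siRNA library was the highest of its group and still below every scrambled library. Geminin (Gmnn), the inhibitor of CDT1, fell as well, by 0.75 ± 0.14, and Orc1, the cycle-regulated subunit of the origin recognition complex, by 0.78 ± 0.20. Orc6, another subunit of that complex, was the exception, at 35.6 to 38.3 CPM in scrambled and 31.9 to 38.8 CPM in Foxl2 siRNA libraries, with overlapping groups and a change of -0.08 ± 0.09.

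Of the 7 genes that turn the loaded helicase on, 6 were called lower (median -0.72). Mcm10, needed to activate the helicase, lay at 27.2, 24.8 and 24.6 CPM in scrambled and at 9.79, 12.8 and 11.6 CPM in Foxl2 siRNA libraries. Its change of -1.16 ± 0.12 (edgeR adjusted p = 1.66e-05) left 44.6% of the scrambled level. Cdc45, a subunit of the active helicase, lay at 25.0, 22.6 and 22.5 against 10.3, 14.1 and 10.7 CPM, with no overlap and a change of -1.0 ± 0.14. The 4 GINS subunits, which form 1 complex, differed in size of change, and the differences between them were not tested. Gins2 lay at 19.2, 19.5 and 19.7 against 10.8, 13.0 and 11.6 CPM and fell by 0.72 ± 0.13, and Gins1 fell by 0.59 ± 0.15. Gins4 fell by 0.21 ± 0.06, and Gins3, at -0.28 ± 0.11, missed the threshold (edgeR adjusted p = 0.0509) although its groups did not overlap. By leaving out 1 library, Gins4 lost its call without scrambled library 1 or 3 at 54 h (adjusted p = 0.0569 and 0.0823 in edgeR's test), and Gins3 gained one without Foxl2 siRNA library 2 at 30 h or at 54 h (0.0335 and 0.0205). Wdhd1, which tethers DNA polymerase alpha to the helicase, fell by 0.91 ± 0.13.

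All 8 polymerase and primase genes were called lower, with a median log2 change of -0.70. Pola1, the catalytic subunit of DNA polymerase alpha, lay at 33.3, 33.9 and 34.4 CPM in scrambled and 19.6, 27.1 and 23.7 CPM in Foxl2 siRNA libraries, a change of -0.53 ± 0.09. Pole, the catalytic subunit of the leading-strand polymerase epsilon, lay at 36.5, 37.7 and 35.9 against 16.6, 28.3 and 19.2 CPM, a change of -0.78 ± 0.14 (edgeR adjusted p = 0.00095). Pold1, its counterpart in the lagging-strand polymerase delta, fell by 0.84 ± 0.14. The primase subunits differed in size of change, Prim1 at -0.83 ± 0.16 and Prim2 at -0.38 ± 0.12, and the difference between them was not tested. Prim2 lost its call without Foxl2 siRNA library 1 or 3 at 54 h (adjusted p = 0.0845 and 0.0585 in edgeR's test) and without scrambled library 1 or 2 (0.0577 and 0.0593). Pole2, the second subunit of polymerase epsilon (-0.62 ± 0.19), lost it without Foxl2 siRNA library 1 or 3 (0.0976 and 0.0929) and without scrambled library 1 (0.0799).

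The clamp and lagging-strand group had the smallest median of the 8 roles, -0.40, and 9 of its 11 members were called lower. Pcna, the sliding clamp, lay at 125, 127 and 122 CPM in scrambled and 80.0, 98.4 and 93.2 CPM in Foxl2 siRNA libraries, with no overlap and a change of -0.46 ± 0.09 (edgeR adjusted p = 0.00106). The clamp loader, replication factor C, has 5 subunits, and these ranged from Rfc5 (-0.92 ± 0.14) and Rfc4 (-0.73 ± 0.16) through Rfc1 and Rfc2 (-0.40 each) to Rfc3 (-0.19 ± 0.10, edgeR adjusted p = 0.171). The 3 subunits of the single-strand binding protein RPA fell by 0.26 (Rpa1), 0.39 (Rpa2) and 0.46 (Rpa3), with adjusted p-values of 0.0459, 0.048 and 0.0132 in edgeR's test. Rpa1 and Rpa2 stayed called in only 3 of the 15 fits that left out 1 library, those without Foxl2 siRNA library 2 or 3 at 30 h or library 2 at 54 h, and their highest adjusted p-values were 0.189 without Foxl2 siRNA library 1 at 54 h (Rpa1) and 0.167 without library 3 (Rpa2). Rpa3 lost its call without library 3 (0.0582), and Rfc3 gained one without Foxl2 siRNA library 2 at 30 h (0.0341). Fen1, the flap endonuclease, fell by 0.85 ± 0.16, while Lig1, the ligase that joins the finished fragments, lay at 56.6 to 60.5 against 47.8 to 59.7 CPM, overlapped, and changed by -0.15 ± 0.14. For Fen1 84.2% of the exon length overlaps genes on the opposite strand (Tmem258 and Gm10143), for Gins2 67.3% (Gse1) and for Chaf1a 52.5% (Ubxn6), and since the strand setting of the counting is not given, their reads could include those of the neighbours. In all, exons of 19 members overlap another gene in GENCODE M21, and pseudogene copies are annotated for Pcna (Pcna-ps1 and Pcna-ps2) and Tyms (Tyms-ps), whose reads the counting could have divided.

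**Figure D2:**
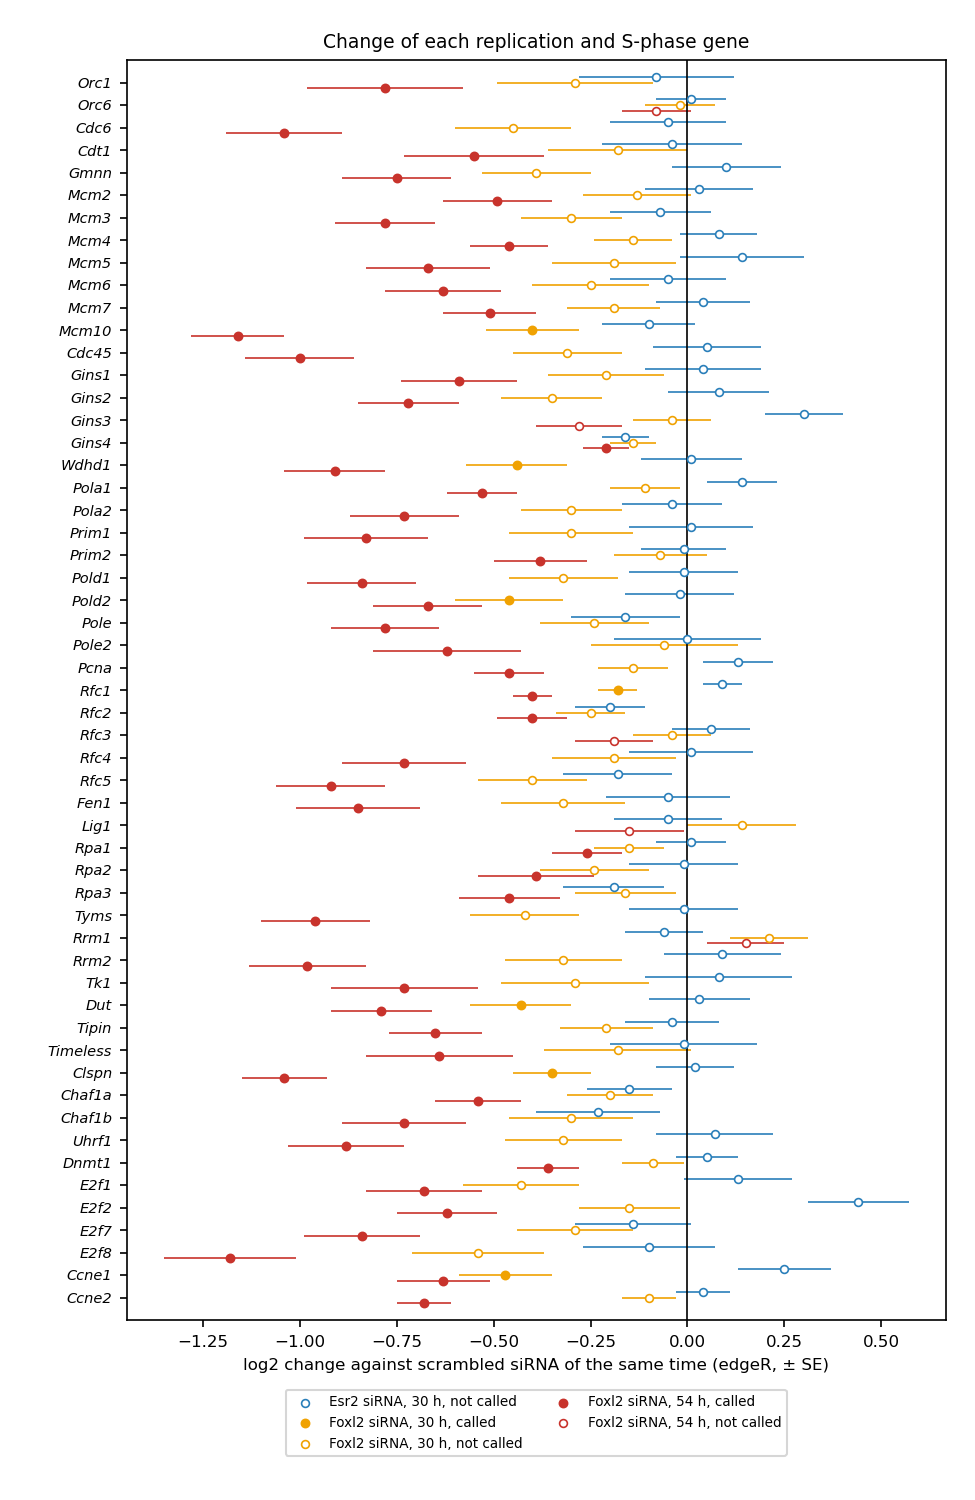
Log2 change of each member with Foxl2 siRNA against scrambled siRNA at 30 h and at 54 h, and with Esr2 siRNA at 30 h, with bars of 1 standard error and filled points for called members, in order of role. At 54 h the 50 called members lie between -1.18 and -0.21, and Orc6, Gins3, Rfc3, Lig1 and Rrm1 are the 5 that were not called.

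The enzymes of nucleotide supply held some of the larger losses and the exception with the highest level. Rrm2, the cycle-regulated small subunit of ribonucleotide reductase, lay at 182, 174 and 174 CPM in scrambled and 67.8, 114 and 86.0 CPM in Foxl2 siRNA libraries, a change of -0.98 ± 0.15 (edgeR adjusted p = 0.00027). Rrm1, the large subunit of the same enzyme, lay at 395, 370 and 383 against 433, 453 and 384 CPM, with overlapping groups and a change of 0.15 ± 0.10 (edgeR adjusted p = 0.254). It was the only member with a positive change at 54 h. Tyms, thymidylate synthase, lay at 42.3, 41.0 and 41.7 against 17.2, 26.3 and 20.7 CPM and fell by 0.96 ± 0.14. Tk1, thymidine kinase, lay at 42.9, 43.2 and 42.0 against 19.5, 34.5 and 23.3 CPM and fell by 0.73 ± 0.19. Dut, which removes dUTP, fell by 0.79 ± 0.13.

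All 3 fork protection genes and all 4 chromatin genes were called lower. Clspn encodes claspin, which couples the fork to the checkpoint kinase CHK1, and its window with an E2F match is printed above. It lay at 42.6, 39.4 and 41.3 CPM in scrambled and 17.0, 23.9 and 18.9 CPM in Foxl2 siRNA libraries, a change of -1.04 ± 0.11 (edgeR adjusted p = 1.38e-05). Its partners in the fork protection complex, Tipin and Timeless, fell by 0.65 ± 0.12 and 0.64 ± 0.19. Timeless lost its call without Foxl2 siRNA library 1 or 3 or scrambled library 1 at 54 h (adjusted p = 0.0614, 0.0646 and 0.0537 in edgeR's test). Uhrf1, which brings the maintenance methyltransferase to newly copied DNA, lay at 100, 98.4 and 94.3 against 41.6, 68.7 and 48.5 CPM, a change of -0.88 ± 0.15. Dnmt1, that methyltransferase, fell by 0.36 ± 0.08, and the histone chaperone subunits Chaf1a and Chaf1b fell by 0.54 ± 0.11 and 0.73 ± 0.16.

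The regulators of S-phase entry fell with their textbook targets, 6 of 6. E2f1, an activator, lay at 30.6, 31.5 and 28.8 CPM in scrambled and 15.4, 23.2 and 18.2 CPM in Foxl2 siRNA libraries, a change of -0.68 ± 0.15 (edgeR adjusted p = 0.00284), and E2f2, another activator, fell by 0.62 ± 0.13. The repressors E2f7 and E2f8, which E2F activators are known to induce, fell by 0.84 ± 0.15 and 1.18 ± 0.17. E2f8 lay at 16.6, 18.6 and 17.2 against 5.39, 10.4 and 7.34 CPM, the largest change of any member. Ccne1 (cyclin E1) lay at 12.1, 13.0 and 12.6 against 7.41, 8.36 and 8.59 CPM and fell by 0.63 ± 0.12. Ccne2 (cyclin E2) lay at 37.7, 36.3 and 35.9 against 22.8, 22.7 and 23.2 CPM, a change of -0.68 ± 0.07 (edgeR adjusted p = 1.91e-05) in which the 3 Foxl2 siRNA libraries were nearly level. Of the 40 called members with a promoter window 15 held an E2F match, and of the 5 members not called, all of which had a window, 3 held one.

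**Figure D3:**
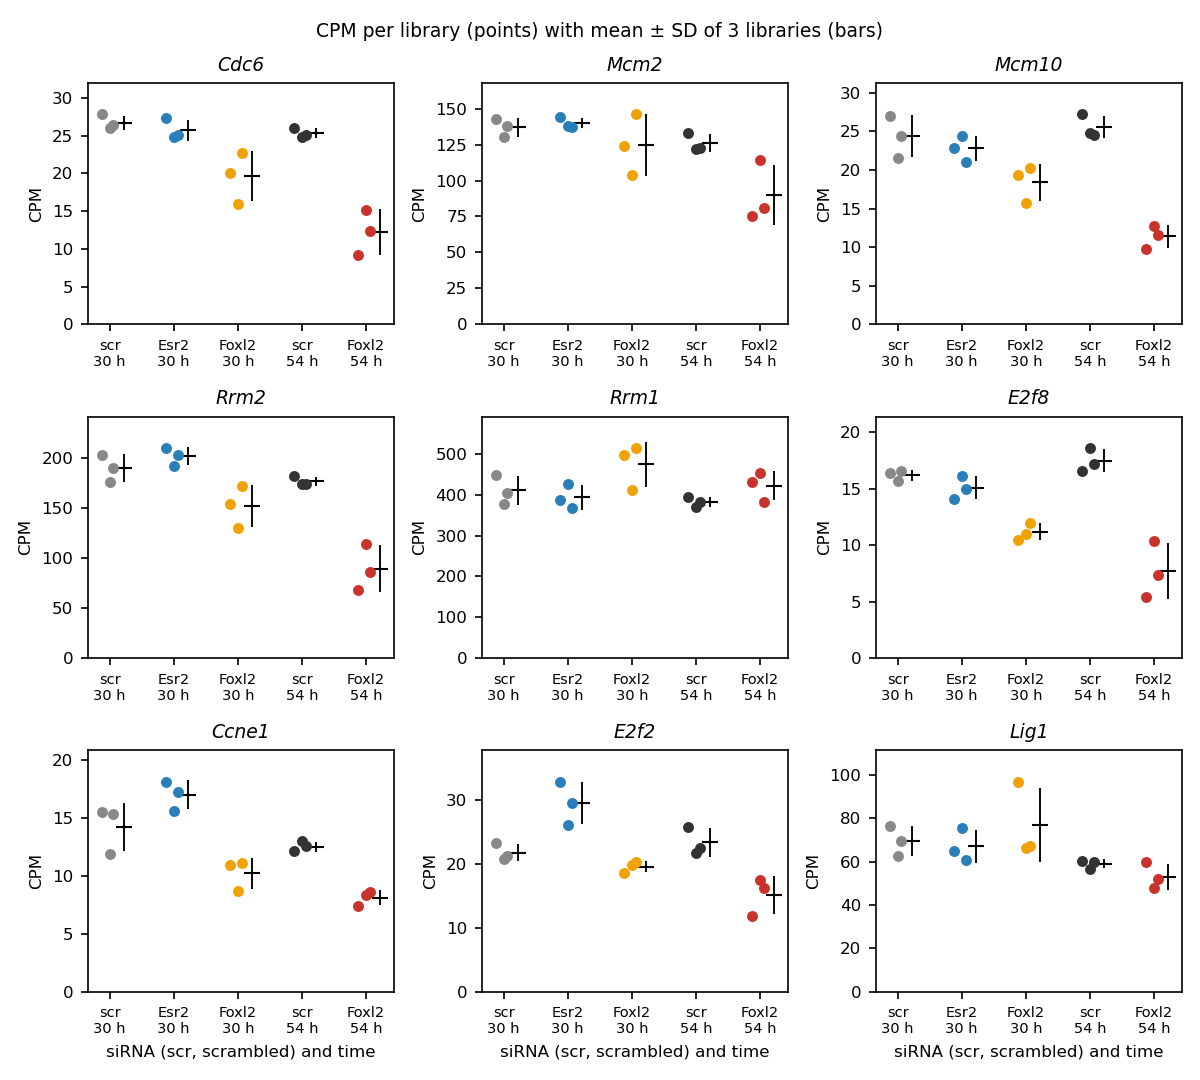
CPM in each of the 15 libraries for 9 members, with points for libraries and bars for the mean and SD of each group of 3. At 54 h the Foxl2 siRNA points lie below the scrambled points for all but Rrm1 and Lig1, and at 30 h the Esr2 siRNA points of E2f2 (26.2 to 32.9 CPM) lie above those of all other groups.

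Comparing levels between genes needs a scaling by length. The length used here is the union of all annotated exons of a gene, which can exceed that of its main transcript. On that scale, in CPM per kilobase of exon in the scrambled libraries at 54 h, Rrm2 (63.7 ± 1.63, SD, n = 3) and Pcna (52.0 ± 0.967) were the most abundant members, followed by Rrm1 (34.7 ± 1.14) and Mcm4 (34.0 ± 0.788), which did not differ beyond their spread. The lowest were Orc1 (2.84 ± 0.113), E2f7 (3.05 ± 0.211) and Pole2 (3.11 ± 0.222), which overlapped within their spread. With Foxl2 siRNA at 54 h, Rrm1 (38.4 ± 3.23) and Pcna (37.7 ± 3.95) had the highest values, and Rrm2 lay at 32.2 ± 8.41. On that scale the 2 subunits of ribonucleotide reductase stood at 63.7 for Rrm2 against 34.7 for Rrm1 in scrambled libraries, and at 32.2 against 38.4 with Foxl2 siRNA. Their order depends on the lengths used, 2771 bases for Rrm2 and 11012 for Rrm1. In CPM, Rrm2 lay below Rrm1 in both groups, at means of 177 against 383 and 89.3 against 423.

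At 30 h the changes with Foxl2 siRNA were smaller. The median log2 change was -0.24, 53 of 55 members had a negative change, and 7 were called lower and 0 higher by edgeR's quasi-likelihood test, where 13.0% of all genes were called (6.65% lower, 6.34% higher). The members' share called lower, 12.7%, was thus closer to the background than at 54 h. In 24 members all Foxl2 siRNA libraries lay below all scrambled libraries, against 17.7% of all genes tested. The 7 were Ccne1, Pold2, Wdhd1, Dut, Mcm10, Clspn and Rfc1, from 6 of the roles, and none was a licensing or chromatin gene.

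Ccne1 lay at 15.5, 11.9 and 15.3 CPM in scrambled and 10.9, 8.67 and 11.1 CPM in Foxl2 siRNA libraries at 30 h, a change of -0.47 ± 0.12 (edgeR adjusted p = 0.0209). Pold2, a small subunit of polymerase delta, lay at 21.4, 21.1 and 22.3 against 17.0, 11.7 and 18.5 CPM, a change of -0.46 ± 0.14 (edgeR adjusted p = 0.0442). Wdhd1 lay at 26.0, 24.0 and 23.9 against 17.9, 16.9 and 19.6 CPM, a change of -0.44 ± 0.13. These groups did not overlap, and the second Foxl2 siRNA library was the lowest in each. Dut lay at 58.6, 54.4 and 53.8 against 42.0, 32.7 and 49.3 CPM, a change of -0.43 ± 0.13. Mcm10 lay at 27.0, 21.6 and 24.4 against 19.4, 15.7 and 20.2 CPM, a change of -0.40 ± 0.12. E2f8, at 16.4, 15.7 and 16.6 against 10.5, 11.0 and 12.0 CPM, had the largest change of any member at this time, -0.54 ± 0.17, and missed the threshold (edgeR adjusted p = 0.0509).

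Other panel members at 30 h were not called although several did not overlap. Cdc6 lay at 27.8, 26.0 and 26.4 against 20.0, 16.0 and 22.7 CPM, a change of -0.45 ± 0.15 (edgeR adjusted p = 0.0679). Tyms lay at 42.3, 38.0 and 40.1 against 29.8, 24.9 and 35.5 CPM (-0.42 ± 0.14). Mcm2 lay at 143, 130 and 138 against 124, 104 and 146 CPM, so the third Foxl2 siRNA library was above all scrambled ones, and its change was -0.13 ± 0.14. Pcna, at 126, 125 and 129 against 117, 99.8 and 129 CPM, also overlapped through library 3, which lay within the scrambled range. Ccne2 lay at 34.8, 37.1 and 37.2 against 36.9, 29.4 and 35.0 CPM and changed by -0.10 ± 0.07, whereas at 54 h it was among the members with the smallest p-values. The count of 7 depended on single libraries. It was 0 without scrambled library 1 or 3 at 30 h and 2 without scrambled library 2, and it was 1 without Foxl2 siRNA library 1 or 2 of that time and 17 without library 3. Leaving out a library of another group, which changes the shared spread, gave 1 (each scrambled library of 54 h, and Esr2 siRNA libraries 1 and 3), 2 (Esr2 siRNA library 2), 12, 14 and 5 (Foxl2 siRNA libraries 1, 2 and 3 of 54 h). The adjusted p of Ccne1 ran from 0.00947 to 0.101 over these fits, and it lost its call without scrambled library 1 or 3 or Foxl2 siRNA library 2 at 30 h. All genes called ran from 898 to 3016 when 1 library was left out. Under other settings the count was 1 without a filter on low counts, 2 with upper-quartile scaling, 3 with the contrast's groups alone and 12 with DESeq2. All genes called under these settings were 1616, 2003, 1440 and 2579.

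The 6 Foxl2 siRNA libraries differed among themselves in step over the whole group of genes. The mean log2 ratio over the 55 members was -0.23, -0.47 and -0.06 in libraries 1, 2 and 3 at 30 h, and -0.86, -0.38 and -0.73 in libraries 1, 2 and 3 at 54 h. At 54 h, 50 members were highest in library 2 and 44 were lowest in library 1, and at 30 h, 47 were highest in library 3 and 50 lowest in library 2. Those with the mildest change in each group were the ones with most Foxl2 RNA left, 65.4 CPM in library 3 at 30 h and 57.5 CPM in library 2 at 54 h, against 25.2 to 33.8 CPM in the other 4. Esr2 was also less reduced in these (45.5 and 49.3 CPM, against 15.7 to 29.2 CPM). The part of the remaining Foxl2 level in the size of the change was not tested. Without library 2 at 54 h the median change of the members was -0.84, and without library 1 it was -0.56.

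**Figure D4:**
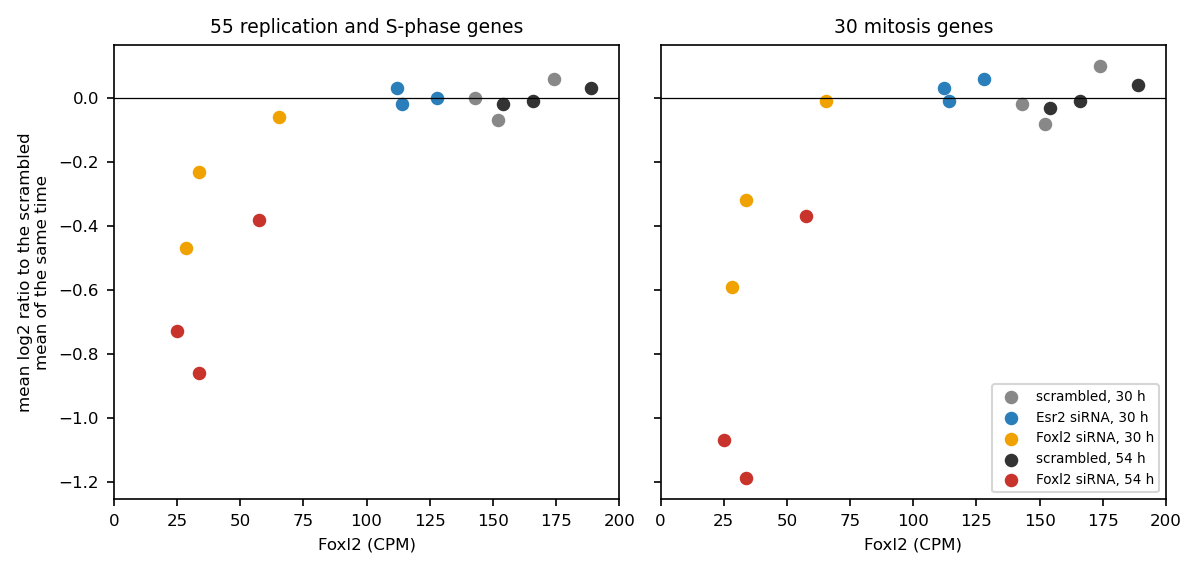
Mean log2 ratio over the 55 members to the scrambled libraries of the same time, against the Foxl2 level in CPM, and the same for 30 mitosis genes, 1 point for each of the 15 libraries. For the members, the 6 Foxl2 siRNA libraries lie at 25.2 to 65.4 CPM with ratios from -0.86 to -0.06, and the Esr2 siRNA libraries at 112 to 128 CPM with ratios from -0.02 to 0.03.

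The scrambled libraries differed little with time, and the calls depended on the fit. Between 30 h and 54 h, 0 members were called in either direction by edgeR's quasi-likelihood test and 0 had an unadjusted p under 0.05. By edgeR 1 of all genes (0.00671%) was called. DESeq2 called 0 members and limma's voom with quality weights 4 lower, where they called 69 and 2693 of all 14907 genes. The median log2 change was -0.04, with a range from -0.24 to 0.11. In 3 members all 54 h libraries lay below all 30 h libraries, against 11.2% of all genes tested. Same-numbered scrambled libraries of the 2 times deviated together for numbers 1 and 2 (correlations of 0.632 and 0.49) and little for number 3 (0.143). Library 3 at 30 h correlated more with library 2 at 54 h (0.336). In all 3 same-numbered pairs 22 members were lower at 54 h and 5 higher, against 23.4% of all genes tested in each direction. With the replicate number as a block in the fit of all libraries edgeR called 3 genes, and in a fit of these 6 libraries without a block 206. With the block in the fit of these 6 libraries, an alternative chosen after seeing the data, edgeR called 11.0% of genes and 1 member, Lig1. It lay at 76.7, 62.9 and 69.4 CPM at 30 h and 60.5, 56.6 and 59.9 CPM at 54 h, with no overlap and a change of -0.24 ± 0.04 (edgeR adjusted p = 0.0059). That fit has fewer residual degrees of freedom than the 10 of the main fit. With the block in the fit of all libraries Lig1 changed by -0.23 ± 0.12 (edgeR adjusted p = 0.984). Mcm2 lay at 143, 130 and 138 CPM at 30 h and 133, 122 and 123 CPM at 54 h, and was lower in every pair although the groups overlapped. Its paired change was -0.12 ± 0.03 (edgeR adjusted p = 0.0538). Rrm2 lay at 203, 176 and 190 against 182, 174 and 174 CPM, also lower in every pair, with a paired change of -0.10 ± 0.04 (edgeR adjusted p = 0.122). In the blocked fit of all libraries the standard errors of Mcm2 and Rrm2 were 0.15 and 0.16.

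The change with Foxl2 siRNA was more negative at 54 h than at 30 h in all 55 members, with differences of the log2 change from -0.76 to -0.06 and a median of -0.42. Tested as an interaction, 0 members were called by edgeR and 27 had an unadjusted p under 0.05, where 0.00671% of all genes were called and 1510 had an unadjusted p under 0.05. DESeq2 called 4 lower, Mcm10, Ccne2, Clspn and Cdc45, and voom with quality weights 33, where they called 210 and 1056 of all 14907 genes. The largest difference was that of Mcm10, -0.76 ± 0.17 (edgeR adjusted p = 0.135), and the smallest p that of Ccne2, -0.57 ± 0.10 (edgeR adjusted p = 0.0961). The result rested on library 2 of the Foxl2 siRNA group at 54 h, without which 29 members and 904 of all 15076 genes were called. Without Foxl2 siRNA library 2 at 30 h, 1 member (Ccne2) and 3 of all 15114 genes were called.

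Esr2 siRNA at 30 h left the group close to the scrambled level. The median log2 change was 0.01, with 29 positive and 26 negative changes between -0.23 and 0.44. By edgeR's quasi-likelihood test 0 members were called and 4 had an unadjusted p under 0.05, where 4.23% of all genes were called (3.11% lower, 1.13% higher). DESeq2 called 1 higher (E2f2), and voom with quality weights called 5 in each direction, where they called 1109 and 4731 of all 14907 genes. In 7 members all Esr2 siRNA libraries lay above all scrambled ones and in 6 all lay below, against 14.2% and 15.2% of all genes. E2f2 lay at 32.9, 26.2 and 29.6 CPM against 23.3, 20.8 and 21.3 CPM in scrambled libraries, with no overlap and a change of 0.44 ± 0.13 (edgeR adjusted p = 0.0785). It was called in the fits that left out Esr2 siRNA library 2 at 30 h, or Foxl2 siRNA library 1 or 2 at 54 h. Ccne1 lay at 18.1, 15.6 and 17.2 against 15.5, 11.9 and 15.3 CPM, a change of 0.25 ± 0.12, and Gins3 at 13.4, 12.5 and 11.5 against 10.4, 9.88 and 9.99 CPM, a change of 0.30 ± 0.10, both not called. Pcna lay at 139, 141 and 137 against 126, 125 and 129 CPM, with no overlap and a change of 0.13 ± 0.09, and Mcm5, Pola1 and Rfc1 also lay above the scrambled libraries. Pole lay at 29.2, 32.5 and 33.2 against 36.0, 35.4 and 34.4 CPM, a change of -0.16 ± 0.14, and Mcm3, Gins4, Rpa3, Chaf1a and Chaf1b also lay below, none of them called. Mcm2 lay at 144, 138 and 137 CPM and Rrm2 at 210, 192 and 203 CPM with Esr2 siRNA, against 130 to 143 and 176 to 203 CPM, and both overlapped.

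Set directly against each other at 30 h, Foxl2 siRNA libraries were lower than Esr2 siRNA libraries in 12 members and higher in 0 by edgeR's quasi-likelihood test, where 20.4% of all genes were called (9.34% lower, 11.1% higher). The median log2 difference was -0.23. In 27 members all Foxl2 siRNA libraries lay below all Esr2 siRNA libraries, against 17.9% of all genes. The comparison shares its Foxl2 siRNA libraries with the one above, and its calls follow partly from them. Ccne1, at 10.9, 8.67 and 11.1 against 18.1, 15.6 and 17.2 CPM, had the largest difference, -0.73 ± 0.12 (edgeR adjusted p = 0.00107). E2f2, at 18.6, 19.8 and 20.4 against 32.9, 26.2 and 29.6 CPM, differed by -0.59 ± 0.13, and E2f1, at 21.8, 19.7 and 27.7 against 37.6, 29.7 and 35.2 CPM, by -0.57 ± 0.15. Gmnn, at 30.8, 26.0 and 40.9 against 46.5, 43.8 and 46.5 CPM, differed by -0.49 ± 0.14, and Dut, at 42.0, 32.7 and 49.3 against 58.8, 53.9 and 57.1 CPM, by -0.45 ± 0.13. None of these 5 overlapped. The other 7 were Wdhd1, Pold2, Gins2, Clspn, Gins3, Pcna and Rfc1, from -0.45 to -0.26. The count was 3 without Esr2 siRNA library 1 or Foxl2 siRNA library 2, 4 without Esr2 siRNA library 3, 6 without Foxl2 siRNA library 1 and 20 without its library 3, and 21 without Foxl2 siRNA library 2 at 54 h.

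Genes around the 55 members moved in the same direction at 54 h, in lists that do not share genes with them. Like the members, these lists were chosen with earlier results of these data known. They were read in the same libraries, so they are not separate evidence. Of 49 other replication and S-phase genes, 38 were called lower (77.6%) and 1 higher (2.04%) by edgeR's test, against 20.3% and 18.5% of all genes. Their median log2 change was -0.52 against -0.01 over all genes. Ticrr, which works with TOPBP1 to fire origins, lay at 24.9, 22.9 and 22.5 against 8.2, 14.4 and 8.84 CPM and fell by 1.16 ± 0.16, and Exo1, a repair and flap exonuclease, lay at 24.9, 23.5 and 23.1 against 9.02, 12.8 and 10.8 CPM and fell by 1.13 ± 0.12. The helicase-activating kinase gene Cdc7 fell by 1.02 ± 0.15. The 1 called higher was Rnaseh2a, a subunit of RNase H2, at 71.8, 63.6 and 66.9 against 106, 81.9 and 86.3 CPM, a change of 0.44 ± 0.12. At 30 h, 5 of these 49 were called lower (10.2%) and 0 higher, against 6.65% and 6.34% of all genes. Among the 5 were Ung, the uracil glycosylase (-0.77 ± 0.17), and Dbf4, the regulatory partner of CDC7 (-0.34 ± 0.09).

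Genes of mitosis fell at 54 h as well, 29 of 30 by edgeR's test (96.7%, against 20.3% of all genes) with a median of -0.84. Mki67, the proliferation marker, lay at 371, 359 and 348 CPM in scrambled and 139, 262 and 152 CPM in Foxl2 siRNA libraries, a change of -0.96 ± 0.17. Top2a, topoisomerase II alpha, lay at 313, 303 and 303 against 126, 221 and 137 CPM, a change of -0.93 ± 0.17. Foxm1, the factor that drives G2/M genes, lay at 76.0, 76.7 and 76.5 against 21.2, 53.4 and 24.4 CPM and had the largest change of that list, -1.21 ± 0.28. At 30 h 0 of the 30 were called by edgeR, where 6.65% of all genes were called lower and 6.34% higher. Of the 30, 6 had an unadjusted p under 0.05 and DESeq2 called 1, with a median of -0.26. By library the mitosis genes followed the members, with mean log2 ratios of -1.19, -0.37 and -1.07 at 54 h and -0.32, -0.59 and -0.01 at 30 h.

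Regulators of G1 did not share that direction. Of 29, 10 were called higher (34.5%) and 9 lower (31.0%) at 54 h, against 18.5% and 20.3% of all genes, with a median of -0.10. Ccnd1 (cyclin D1), which drives cells through G1, lay at 16.6, 29.9 and 24.6 CPM in scrambled and 86.7, 33.6 and 209 CPM in Foxl2 siRNA libraries, a change of 2.21 ± 0.54. The groups did not overlap, but the second library was close to the scrambled range. Ccnd2 (cyclin D2), the D-type cyclin needed for granulosa cell division in mice, lay at 594, 495 and 527 against 930, 864 and 598 CPM, did not overlap and rose by 0.57 ± 0.20 (edgeR adjusted p = 0.043). That call was lost with library size only (0.0587), without any 1 of the scrambled libraries or Foxl2 siRNA library 1 or 2 of 54 h (up to 0.158), and without scrambled library 3 or Esr2 siRNA library 1 of 30 h. Among CDK inhibitors, Cdkn2b lay at 21.3, 19.3 and 19.9 against 52.6, 32.0 and 55.5 CPM (1.21 ± 0.16), Cdkn2a at 1.87, 1.69 and 1.56 against 4.58, 3.45 and 3.54 CPM (1.18 ± 0.22), and Cdkn1a (p21) at 241, 249 and 235 against 402, 305 and 345 CPM (0.54 ± 0.10). Cdkn1b (p27) rose by 0.22 ± 0.08, close to the threshold (edgeR adjusted p = 0.0481), whereas Cdkn2c, an inhibitor that E2F is known to induce, fell by 0.77 ± 0.13. Rb1 and Rbl1, genes of the retinoblastoma family, fell by 0.64 ± 0.08 and 0.60 ± 0.08. Myc, at 89.1 to 95.0 against 74.0 to 139 CPM, overlapped and was not called. At 30 h Cdkn2b was already higher (0.87 ± 0.16) and Rb1 lower (-0.40 ± 0.08), while Ccnd1 (1.23 ± 0.53) and Cdkn1a (0.11 ± 0.10) were not called.

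**Figure D5:**
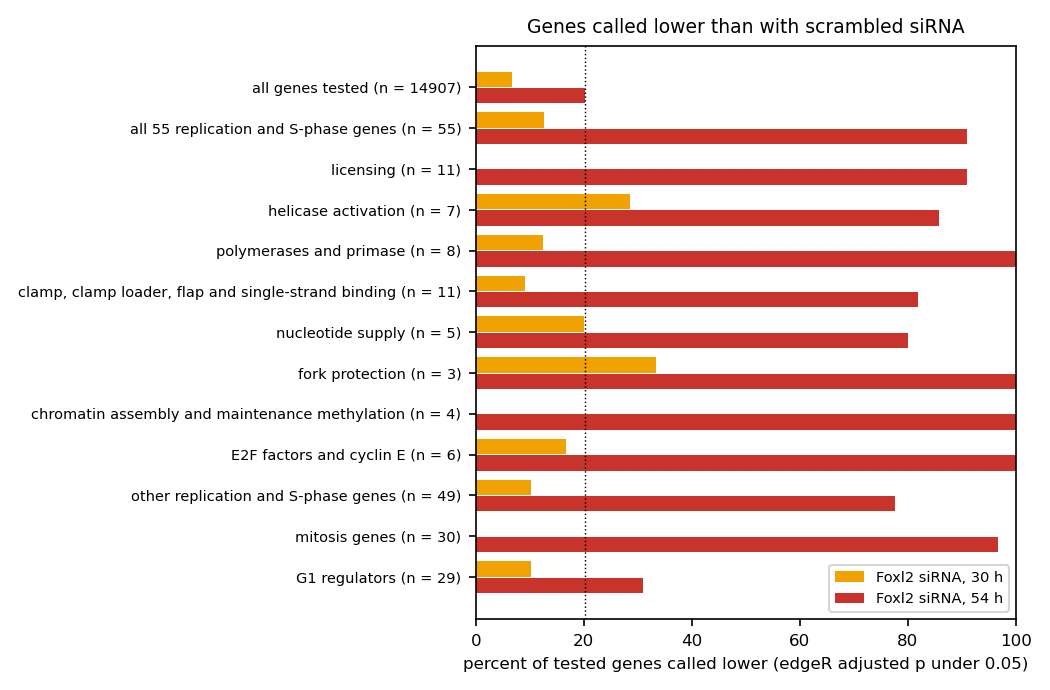
Percent of the genes of each member role and supporting list called lower with Foxl2 siRNA against scrambled siRNA by edgeR's quasi-likelihood test, at 30 h and at 54 h. The dotted line is the 20.3% of all genes tested that were called lower at 54 h, and the 8 roles lie between 80.0% and 100% at that time.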

How the data were processed

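RNA-seq counts of 15 libraries of primary mouse granulosa cells were used. The authors deposited raw counts per gene, whole numbers without any normalization. Per the submitters' processing notes, bcl2fastq 2.15.0, TopHat2, DESeq2 and the build mm10 were used. How reads were counted, with which annotation and on which strand, is not given in the sources used here. Per the labels' protocols, libraries were stranded poly(A) libraries from 1.3 µg of RNA, read as single 75-base reads. In 1 scrambled library 15 gene symbols had become dates and were restored from the gene order that all files share. The 92 ERCC spike-ins (0.105% to 0.352% of counts) were left out.

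All 15 libraries entered 1 fit of 5 group means in edgeR 4.0.16 (R 4.3.3; TMM scaling, filterByExpr, quasi-likelihood test, two-sided, 10 residual degrees of freedom, biological coefficient of variation 0.148), with Benjamini-Hochberg adjustment over 14907 genes and calls at an adjusted p under 0.05. A difference is called lower or higher by that test alone. Exact permutation of 3 against 3 libraries cannot go below p = 0.1. Depth was 44976872 to 59550065 gene counts, and 3 counts equal 0.0504 to 0.0667 CPM, which covers counting error only. Replicates differed by a chi-square per degree of freedom of 6.85 to 122, so none was a copy. The fit was also run on counts simulated from its own estimates of spread, with known changes in the Foxl2 siRNA group at 54 h. Such counts hold no milder library and no link between replicate numbers, so that run cannot show how the fit handles these. Alternatives were RLE, upper-quartile and no scaling, no filter, a mean CPM of at least 1, DESeq2 1.42.0, voom with quality weights (limma 3.58.1), the contrast's groups alone, a replicate block and each library left out. Deviations from the group means of same-numbered scrambled libraries at 30 h and 54 h correlated at 0.632, 0.49 and 0.143, all over 0.1, so that comparison was also blocked by replicate number. The labels do not say what a number shares, and no other 2 groups met this mark. Scrambled library 3 at 30 h correlated more with library 2 at 54 h (0.336) than with its own number.

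Exon lengths and overlaps came from GENCODE M21, and promoter windows from RefSeq (GRCm38.p6). Values per library were given for a panel of 18 members and for up to 5 called members per direction with the largest log2 change in each comparison; of each supporting list, up to 4 called genes per direction were named, besides Foxl2, Esr2, Mki67, Top2a, Ccnd1, Ccnd2, Cdkn1a, Cdkn1b and Myc. Other members were described by their log2 changes, and Orc6, Gins3, Rrm1 and Lig1 were given per library because they stood outside the calls, after their values were seen. The members, the lists and the rule were chosen with earlier results of these data known.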

Additional observations from a re-analysis of the deposited data

How the results depend on the processing

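The members lower with Foxl2 siRNA at 54 h numbered 43 to 51 under the 9 other settings and 42 to 52 when 1 library was left out, with 4424 to 6752 genes called in all and a median log2 change of -0.84 to -0.56 over the latter fits. No named member at 54 h changed sign. The 7 members lower at 30 h became 2 with upper-quartile scaling, 1 without a filter, 3 with the contrast's groups alone and 12 with DESeq2; voom with quality weights gave 34 lower, 2 higher (Lig1 and Rrm1) and 5252 genes in all. Leaving out 1 library gave 0 to 17 members lower and 898 to 3016 genes called. Upper-quartile scaling split all genes called at 30 h into 1204 higher and 799 lower, where TMM gave 945 and 991.

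For Esr2 siRNA the median change of 0.01 became 0.04 with upper-quartile scaling and with library size only, and -0.03 to 0.05 when 1 library was left out, so its sign was not fixed, with 0 to 1 members higher. The Esr2 siRNA change of Mcm2 (0.03) ran from -0.0 to 0.07 over those fits. DESeq2 called 1 member higher and 1109 genes, the contrast's groups alone 1 and 1131, and voom 5 higher, 5 lower and 4731 genes, where the main fit called 631; leaving out 1 library gave 238 to 1030. Upper-quartile scaling split the genes called for Esr2 siRNA into 250 higher and 396 lower, and library size only into 248 and 391, where TMM gave 168 and 463. Between Foxl2 and Esr2 siRNA, DESeq2 called 1 member higher (Rrm1) and 17 lower, voom 2 higher, 30 lower and 5446 genes, and the contrast's groups alone 6 lower and 1625 genes; leaving out 1 library gave 3 to 21 lower, 0 to 1 higher and 1767 to 3943 genes. Library size only gave 1362 genes higher and 1989 lower there, against 1649 and 1393.

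For scrambled siRNA at 54 h against 30 h the 1 gene called became 0 with RLE scaling or no filter, 69 with DESeq2, 206 with the contrast's groups alone and 2693 with voom, which also called 4 members lower; leaving out 1 library gave 0 to 2 genes and medians of the members from -0.08 to -0.01. For the difference between times DESeq2 called 4 members and 210 genes and voom 33 and 1056, and leaving out 1 library gave 0 to 29 members and 1 to 904 genes. The causes of these shifts were not tested.

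Only the scrambled libraries of the 2 times met the mark for pairing by replicate number, with number 3 just above it (0.143). A block in the fit of these 6 libraries called 1586 genes and 1 member lower. Over all groups, same-numbered libraries of different groups correlated above 0.1 in 15 of 30 pairs (-0.494 to 0.659), and 25 of 60 correlated best with their own number. With a replicate block in the fit of all libraries 47 members were lower at 54 h, 3 at 30 h (Rfc1, Ccne1 and E2f8) and 10 against Esr2 siRNA, 0 were called for Esr2 siRNA, and 3 genes were called between the scrambled times. Over the alternatives, the values of all 55 members at 54 h kept their side of the threshold in 1251 of 1320 cases, with 63 calls lost and 6 gained. Those of the members named in the other comparisons did so in 431 of 552 cases at 30 h (92 lost, 29 gained), 224 of 288 against Esr2 siRNA (64 lost) and 83 of 96 for the difference between times (13 gained). With the contrast's groups alone Cdt1 (adjusted p = 0.077) and Mcm2 (0.0623) lost their edgeR calls at 54 h, as did Cdt1 under the block (0.0502). Depth limited no member, since the lowest count was 180; 3 libraries per group and 1 milder library in each Foxl2 siRNA group limit the precision.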
